A study of Mus musculus with 9 samples.

Results

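Transcripts of 10 Bcl2 family genes were followed in 5TGM1-Cas9 mouse myeloma cells after deletion of glucose transporter genes. The 10 genes were chosen by name, out of 53077 genes listed in each table, as the best known survival and death members of the family. The choice was made with earlier results of these data known. They comprised 3 survival members (*Bcl2*, *Bcl2l1*, *Mcl1*), 2 effectors (*Bax*, *Bak1*) and 5 BH3-only genes (*Bcl2l11*, *Bbc3*, *Pmaip1*, *Bad*, *Bid*). All 10 were detected in all 9 samples and passed the filter on low counts, which left 13834 genes for testing.

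Proteins of the Bcl2 family decide whether the outer mitochondrial membrane is breached, the step that releases cytochrome c and starts the caspases. BAX and BAK form the pores, BCL2, BCL-XL and MCL1 hold them in check, and the BH3-only proteins either block these guardians or engage the pore formers directly. Plasma cells and myeloma cells are known for their reliance on MCL1, and BIM, PUMA and NOXA are BH3-only proteins that respond to growth factor withdrawal, p53 and cell stress.

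5TGM1 is a mouse multiple myeloma line, which here expressed Cas9 constitutively. All 3 groups carried Cas9 and a lentiviral gRNA. Control cells (genotype WT) received a gRNA against *Rosa26*, a locus whose cutting serves as a control. The second group (*Slc2a1* KO) received an *Slc2a1* gRNA, which targets the glucose transporter GLUT1. The third group, *Slc2a1/3/5/6/8* gRNA cells, carried gRNAs targeting all 5 of these *Slc2a* transporter genes. According to the study's methods, this last population came from a line in which the transporters other than *Slc2a1* had been targeted with fluorescent vectors, sorted and expanded before the *Slc2a1* gRNA was added, so that sorting and expansion cannot be told apart from the deletions. The cultures were mixtures of edited and unedited cells rather than clones. Each group had 3 biological replicates.

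The samples held 21838805 to 30537105 estimated counts, of which mitochondrial genes took 4.84 to 11.1%. Libraries that stood apart from their group were *Slc2a1/3/5/6/8* gRNA replicate 1, whose counts differed from replicates 2 and 3 by 75.8 and 111 (chi-squared divided by its degrees of freedom) against 23.6 between those, and control replicate 3, at 59.6 and 52.1 against 20.8. The mitochondrial share was 11.1% in the former, against 5.84 and 4.91% in the rest of its group, and 4.84% in the latter, against 8.01% in each of the other controls. Plasma cell markers were present (*Xbp1* at a mean of 445 TPM, *Irf4* at 115 and *Sdc1* at 80.5 over the 9 samples), although *Tnfrsf17* was at 0.683. The summed TPM of the listed B cell, macrophage, T cell, erythroid or fibroblast markers did not exceed 1.72 in any sample, against at least 672 for the 8 plasma cell markers. *Slc2a1* mRNA was at 26.9 to 59.5 TPM in control, 28.3 to 37.1 in *Slc2a1* gRNA and 19.1 to 31.5 in *Slc2a1/3/5/6/8* gRNA samples. Its log2 fold change against control was -0.21 (adjusted p = 0.544) with the *Slc2a1* gRNA and -0.66 (adjusted p = 0.029) with the 5 gRNAs by edgeR's quasi-likelihood test. Of the other targeted genes, *Slc2a8* (log2 -1.22, adjusted p = 0.000309) and *Slc2a6* (log2 -0.67, adjusted p = 0.0366) were lower with the 5 gRNAs, *Slc2a3* did not pass (log2 0.27, adjusted p = 0.259), and *Slc2a5* was higher, at 0.508 to 1.42 TPM against 0.104 to 0.396 in control (log2 2.65, adjusted p = 0.00478). Small insertions and deletions need not lower the mRNA, so these values do not measure the editing.

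The level of each member was read first, as TPM, a level corrected for transcript length and library size. *Mcl1*, the short-lived guardian, was the most abundant of the 10 in control cells at 226 ± 27.3 TPM (SD, n = 3), above 99.3% of all genes listed. *Bax* followed at 86.3 ± 6.19, *Bcl2l1*, which encodes BCL-XL, at 75.8 ± 12.1 and *Bbc3*, which encodes PUMA, at 55.7 ± 15.0. Lower in the order were *Pmaip1*, which encodes NOXA, at 41.0 ± 11.8, *Bid* at 33.7 ± 5.04, *Bak1* at 30.3 ± 2.19, *Bcl2l11*, which encodes BIM, at 20.1 ± 7.79 and *Bad* at 15.6 ± 1.84. *Bcl2*, the founding member, was last at 2.63 ± 0.494. The 3 control values of neighbours in this order overlapped, except between *Mcl1* and *Bax* and between *Bad* and *Bcl2*.

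**Figure D1:**
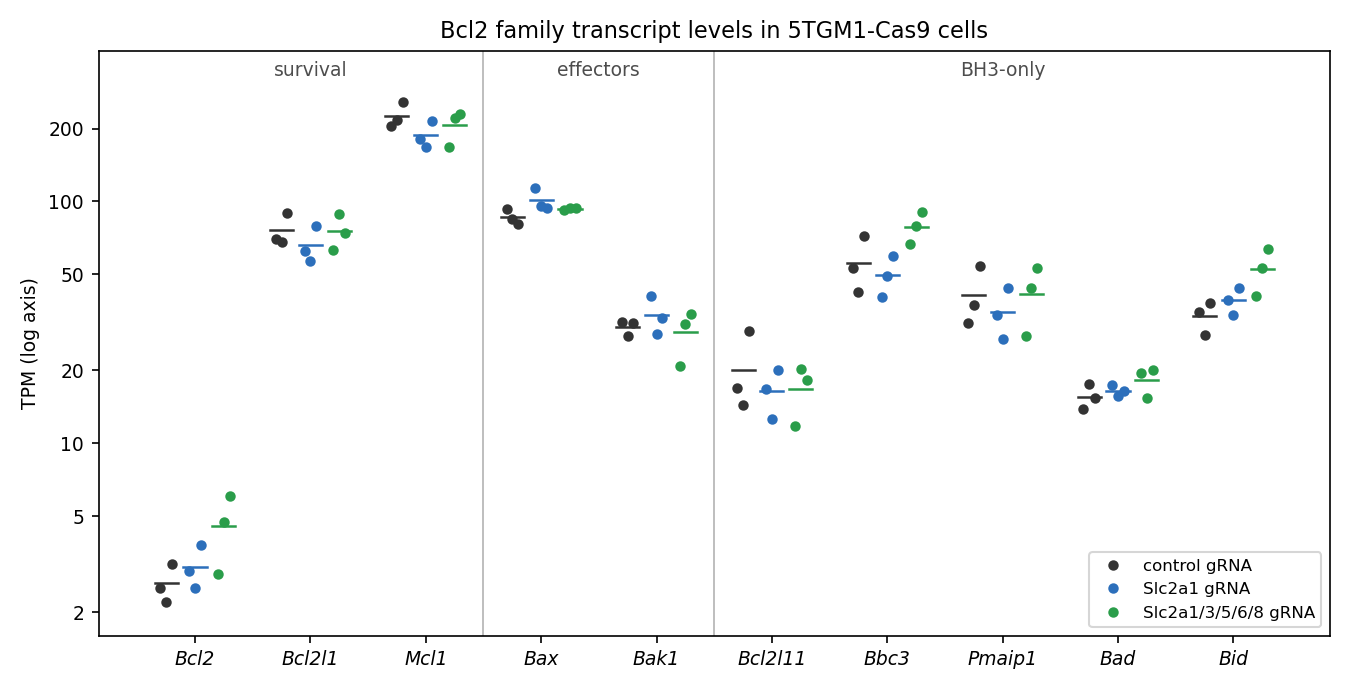
TPM (log axis) of the 10 members in each of the 9 samples, grouped by role. Points are samples, shown from left to right as replicates 1, 2 and 3, and bars are group means (n = 3). *Mcl1* lay above and *Bcl2* below every other member in every sample.

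Sequence upstream of the start site was examined for members on either side of the comparisons below, *Bcl2* and *Bbc3*, whose counts were higher with the 5 gRNAs, and *Mcl1*, whose counts did not pass the test. The 250 bases before the RefSeq start (GRCm38.p6) are printed 5′ to 3′ on the strand of the gene, with matches to the searched motifs in capitals. They lie at chr1:106714291-106714540 (minus strand) for *Bcl2*, chr7:16309333-16309582 (plus strand) for the most upstream of the 3 *Bbc3* starts, and chr3:95658471-95658720 (plus strand) for *Mcl1*. None of these bases is annotated as exon, and the *Bbc3* stretch lies inside the longer GENCODE gene model.
Bcl2: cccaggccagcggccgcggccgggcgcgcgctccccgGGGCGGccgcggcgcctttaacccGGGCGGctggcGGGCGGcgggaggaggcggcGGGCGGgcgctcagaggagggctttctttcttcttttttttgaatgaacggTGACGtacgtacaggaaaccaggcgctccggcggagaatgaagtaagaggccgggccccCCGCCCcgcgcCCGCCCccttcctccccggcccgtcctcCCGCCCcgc
Bbc3: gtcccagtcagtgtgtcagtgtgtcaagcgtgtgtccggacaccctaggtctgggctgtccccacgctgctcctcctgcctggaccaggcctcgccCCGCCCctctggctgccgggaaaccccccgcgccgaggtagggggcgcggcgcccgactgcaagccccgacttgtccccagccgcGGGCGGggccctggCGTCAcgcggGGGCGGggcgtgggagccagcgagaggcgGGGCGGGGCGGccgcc
Mcl1: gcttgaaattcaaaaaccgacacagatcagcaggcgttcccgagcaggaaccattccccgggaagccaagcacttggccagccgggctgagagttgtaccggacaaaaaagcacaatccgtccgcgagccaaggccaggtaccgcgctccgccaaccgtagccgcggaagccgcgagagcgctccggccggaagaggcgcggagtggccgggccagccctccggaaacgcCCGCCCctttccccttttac
The motifs, searched on both strands, were the E-box CACGTG, the FOXO motif GTAAACA, the ATF4-CEBP motif TGATGNAA, the CRE half-site TGACG, the GC box GGGCGG and a p53 half-site. They were found in 6.02%, 3.17%, 3.45%, 17.8%, 32.7% and 7.13% of 32851 RefSeq promoters of the same length, in that order. The *Bcl2* stretch held 7 GC boxes and 1 CRE half-site, the *Bbc3* stretch 5 GC boxes and 1 CRE half-site, and the *Mcl1* stretch 1 GC box. The other *Bbc3* starts had 1 and 7 GC boxes. *Bid*, which rose, had 3 boxes and a GC content of 63.6%. Among members that did not pass, *Bcl2l11* had 3 and 2 boxes at its 2 starts with a GC content of 72.0 and 73.2%, *Bad* had 3 and 0, *Bax* had 2, and *Bak1* and all 3 starts of *Bcl2l1* had 0. The GC content was 74.8% for *Bcl2*, 76.4% for *Bbc3* and 64.4% for *Mcl1*, against a median of 52.4% over the promoters searched. The other *Bbc3* starts had a FOXO match at position -167 and an E-box at -64, counted from the respective start. Among members that did not pass, *Bcl2l11* had a FOXO match at -227, and *Bax* an E-box at -9 and a p53 half-site at -201. A match of letters describes the stretch and is no evidence of binding. The search covered 9 of the 10 members. *Pmaip1* was left out of it, so whether its upstream stretch holds any of the motifs was not examined. The 32851 promoters searched need not be all RefSeq promoters.

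Counts were compared between groups with edgeR's quasi-likelihood test, with the replicate number as a block, TMM scaling and Benjamini-Hochberg adjustment over all 13834 genes, and are given per sample as TMM-scaled CPM (counts scaled to library size, not corrected for length). With the *Slc2a1* gRNA, 1 of 10 members passed an adjusted p of 0.05, *Bid*, which was higher than in control. Over all genes 4.64% passed, 2.25% in the higher direction. This background itself moved with the samples used, from 642 genes to 11 without control replicate 2 and to 2268 with only the 2 groups compared. With the *Slc2a1/3/5/6/8* gRNAs, 3 of 10 passed, *Bcl2*, *Bbc3* and *Bid*, all higher than in control, where 15.9% of all genes passed and 8.49% did so in the higher direction. Between the deleted populations 1 of 10 passed, *Bbc3*, higher with the 5 gRNAs, against 2.31% of all genes and 1.36% in the higher direction. The median log2 fold change of the 10 members was 0.18, 0.07 and 0.07 in the 3 comparisons, against -0.001, 0.007 and 0.003 for all genes tested. The member counts were not tested against these shares. The comparisons share samples and are not independent of each other. In bulk RNA from mixed cultures, a change in every cell and a change in the share of cells that carry a transcript cannot be told apart.

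**Figure D2:**
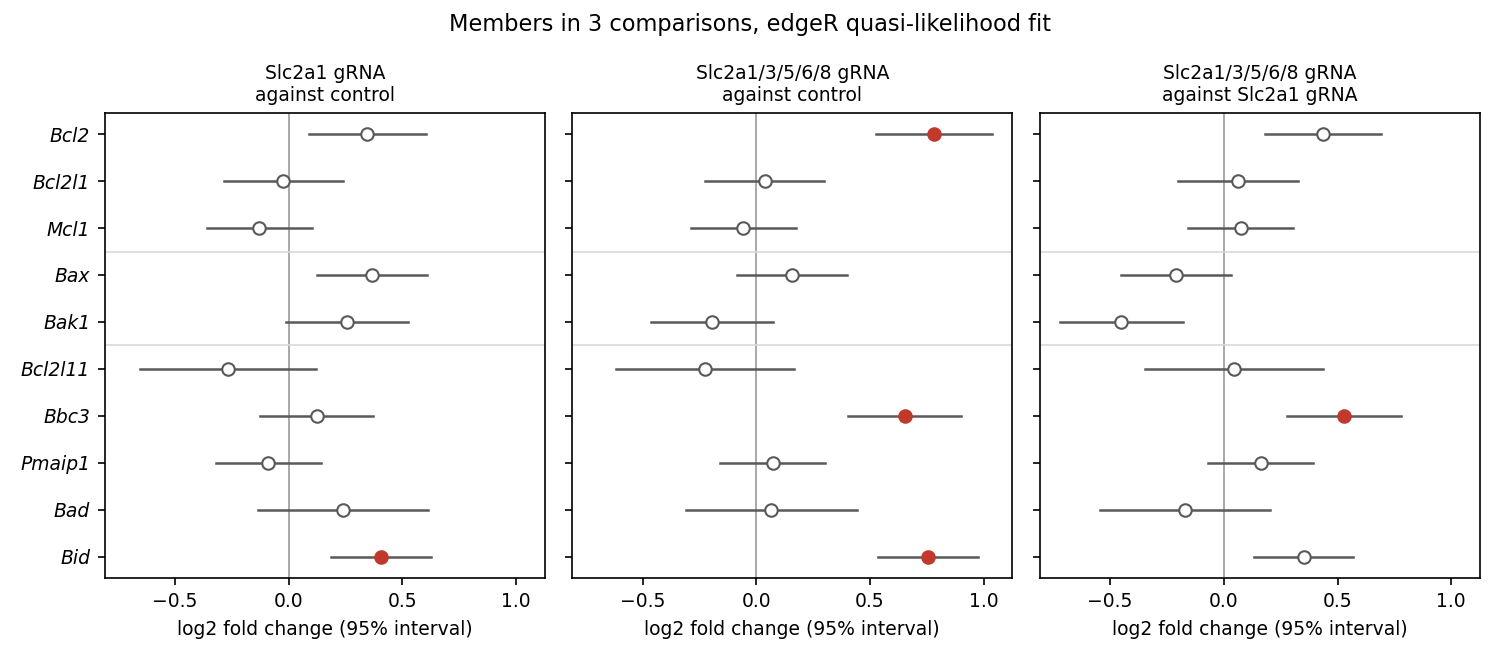
Log2 fold change of each member in the 3 comparisons, with its 95% interval from the edgeR fit. Filled points passed an adjusted p of 0.05, which held for 1, 3 and 1 of the 10 members.

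*Bcl2* was the lowest of the survival members and the only one of the 3 that rose, with the 5 gRNAs. Its scaled counts were 19.7, 18.3 and 21.6 in control replicates 1, 2 and 3, 24.2, 22.4 and 29.4 in the *Slc2a1* gRNA replicates, and 28.5, 33.5 and 41.2 in the *Slc2a1/3/5/6/8* gRNA replicates. All values of both deleted populations lay above all control values, while the deleted populations overlapped each other. *Bcl2* was 1.72-fold higher with the 5 gRNAs than in control (log2 0.78, SE 0.12, adjusted p = 0.00158). By edgeR the log2 difference with the *Slc2a1* gRNA was 0.34 (SE 0.12, adjusted p = 0.112), and between the deleted populations it was 0.44 (SE 0.12, adjusted p = 0.0747). Neither passed in the main edgeR fit, but they passed in 1 and 3 of the 18 alternatives. By DESeq2 the difference between the deleted populations passed (adjusted p = 0.0442). On the TPM scale the rise stood less clear of the replicate spread. *Bcl2* was at 2.51, 2.21 and 3.18 TPM in control and 2.89, 4.70 and 6.04 TPM with the 5 gRNAs, so that *Slc2a1/3/5/6/8* gRNA replicate 1 fell below control replicate 3.

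*Bcl2l1* and *Mcl1*, the survival members that carry nearly all of the survival transcripts, did not pass in any comparison. *Mcl1* had scaled counts of 631, 663 and 678 in control, 576, 582 and 645 with the *Slc2a1* gRNA and 628, 630 and 637 with the 5 gRNAs. The ranges overlapped, although each replicate of both deleted populations was below the same-numbered control. The intervals do not exclude a modest fall in either deleted population. The 95% interval of the *Mcl1* log2 fold change was -0.36 to 0.10 with the *Slc2a1* gRNA and -0.29 to 0.17 with the 5 gRNAs (adjusted p = 0.511 and 0.757). *Bcl2l1* had scaled counts of 152, 163 and 176 in control, 155, 149 and 178 with the *Slc2a1* gRNA and 172, 181 and 150 with the 5 gRNAs. The intervals of its log2 fold change were -0.29 to 0.24 and -0.22 to 0.30 (adjusted p = 0.932 and 0.864).

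The make-up of the survival transcripts was described per sample on the TPM scale. *Mcl1* took 74.3 ± 1.05% (SD, n = 3) of the summed TPM of the 3 survival members in control cells, 73.2 ± 0.914% with the *Slc2a1* gRNA and 72.1 ± 1.94% with the 5 gRNAs. The range of the last group, 70.4 to 74.2%, overlapped that of control, 73.4 to 75.5%. *Bcl2* took 0.862 ± 0.0785% in control, 1.19 ± 0.0832% with the *Slc2a1* gRNA and 1.56 ± 0.361% with the 5 gRNAs, with no overlap between control and either deleted population. Even at its highest, in *Slc2a1/3/5/6/8* gRNA replicate 3, *Bcl2* was 1.94% of the survival transcripts.

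The effectors *Bax* and *Bak1*, which form the pores, did not pass in any comparison in the main edgeR fit. *Bax* had scaled counts of 67.9, 66.6 and 51.1 in control, 87.8, 83.5 and 67.7 with the *Slc2a1* gRNA and 83.7, 62.1 and 61.3 with the 5 gRNAs. Each *Slc2a1* gRNA replicate was above the same-numbered control, but the lowest of them lay below the highest control value. The log2 difference was 0.37 (SE 0.11, adjusted p = 0.0782) with the *Slc2a1* gRNA and 0.16 (SE 0.11, adjusted p = 0.361) with the 5 gRNAs. *Bak1* had scaled counts of 69.6, 67.1 and 62.7 in control, 89.6, 74.1 and 75.0 with the *Slc2a1* gRNA and 51.8, 56.5 and 65.9 with the 5 gRNAs. The *Slc2a1* gRNA values were above all values of both other groups, which overlapped each other. The log2 differences of *Bak1* were 0.26 (SE 0.12, adjusted p = 0.246) with the *Slc2a1* gRNA against control, -0.19 (SE 0.12, adjusted p = 0.311) with the 5 gRNAs against control, and -0.45 (SE 0.12, adjusted p = 0.0802) between the deleted populations. By DESeq2 the last difference passed (adjusted p = 0.0234), as did *Bax* with the *Slc2a1* gRNA (adjusted p = 0.0351).

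*Bid*, the BH3-only protein that caspase-8 cleaves to link death receptors to mitochondria, was the member that rose in both deleted populations. Its scaled counts were 70.5, 60.6 and 69.4 in control, 90.3, 80.6 and 94.3 with the *Slc2a1* gRNA and 108, 106 and 124 with the 5 gRNAs. No value of any group overlapped another group. *Bid* was 1.69-fold higher with the 5 gRNAs than in control (log2 0.75, SE 0.10, adjusted p = 0.000891) and 1.32-fold higher with the *Slc2a1* gRNA (log2 0.40, SE 0.10, adjusted p = 0.0426). The latter call was close to the threshold. It was lost without the replicate block (adjusted p = 0.0622), with total count scaling (adjusted p = 0.125) and when any 1 of the 3 control or 3 *Slc2a1* gRNA samples was left out (adjusted p from 0.0783 to 0.238). The difference between the deleted populations was 0.35 on the log2 scale (SE 0.10, adjusted p = 0.0908, and 0.0348 by DESeq2). In TPM *Bid* was at 34.8, 28.1 and 38.0 in control, 39.1, 34.0 and 43.9 with the *Slc2a1* gRNA and 40.5, 53.1 and 63.4 with the 5 gRNAs. On this scale the control and *Slc2a1* gRNA values overlapped.

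*Bbc3*, whose product PUMA binds every survival protein, rose with the 5 gRNAs. Its scaled counts were 67.8, 61.0 and 74.9 in control, 65.3, 75.5 and 80.6 with the *Slc2a1* gRNA and 114, 98.8 and 106 with the 5 gRNAs. The *Slc2a1/3/5/6/8* gRNA values were above all others, and the other groups overlapped. *Bbc3* was 1.57-fold higher with the 5 gRNAs than in control (log2 0.65, SE 0.11, adjusted p = 0.00373) and 1.44-fold higher than with the *Slc2a1* gRNA (log2 0.53, SE 0.12, adjusted p = 0.0348). The second call was lost without the replicate block (adjusted p = 0.0572) and on leaving out any single sample but *Slc2a1/3/5/6/8* gRNA replicate 3 (adjusted p from 0.0623 to 0.102). Its log2 difference from control with the *Slc2a1* gRNA alone was 0.12, with a 95% interval of -0.13 to 0.37 (adjusted p = 0.573). In TPM *Bbc3* was at 53.2, 42.1 and 71.8 in control and 66.7, 79.0 and 90.5 with the 5 gRNAs, which overlapped.

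**Figure D3:**
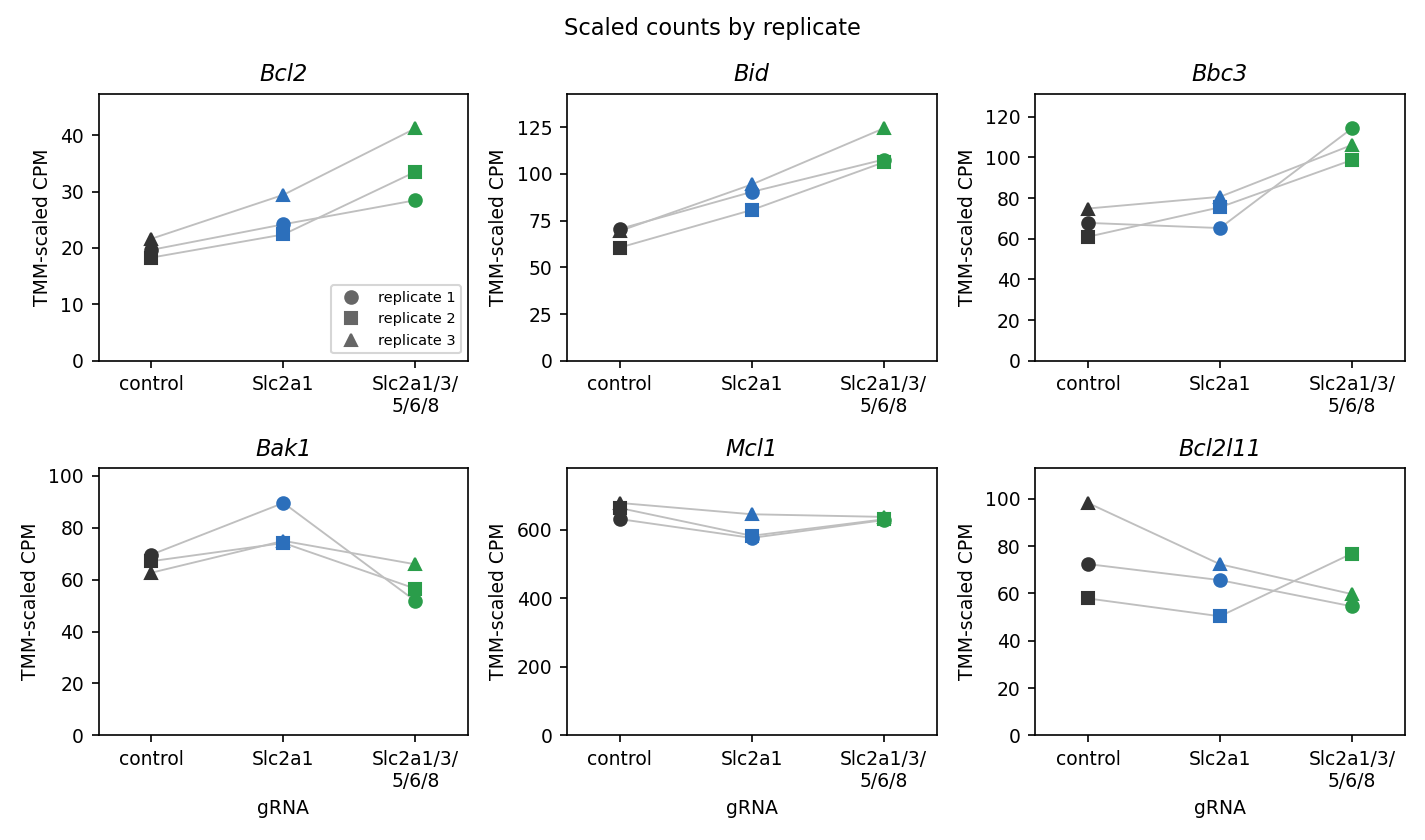
TMM-scaled CPM of 6 members by group, with lines joining samples of the same replicate number (axes start at 0). *Bid* lay at 60.6 to 70.5 in control, 80.6 to 94.3 with the *Slc2a1* gRNA and 106 to 124 with the 5 gRNAs, while *Mcl1* lay between 576 and 678 in all 9 samples.

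The other BH3-only genes did not pass in any comparison. *Bcl2l11* varied most between the control replicates, with scaled counts of 72.4, 57.9 and 98.3 in control, 65.7, 50.4 and 72.4 with the *Slc2a1* gRNA and 54.6, 76.9 and 59.7 with the 5 gRNAs. The groups overlapped, although each *Slc2a1* gRNA replicate was below the same-numbered control. The 95% intervals of the *Bcl2l11* log2 fold change were wide, -0.66 to 0.12 and -0.62 to 0.17 against control (adjusted p = 0.41 and 0.425). Without *Slc2a1/3/5/6/8* gRNA replicate 2, the log2 fold change of *Bcl2l11* with the 5 gRNAs was -0.55 (adjusted p = 0.0161). *Pmaip1* had scaled counts of 89.1, 108 and 125 in control, 94.7, 90.7 and 115 with the *Slc2a1* gRNA and 96.2, 113 and 128 with the 5 gRNAs. *Bad*, whose activity is set by phosphorylation and 14-3-3 binding, had scaled counts of 12.9, 17.7 and 13.0 in control, 19.0, 17.3 and 15.2 with the *Slc2a1* gRNA and 19.6, 12.9 and 13.5 with the 5 gRNAs. Values of *Pmaip1* and *Bad* overlapped between all groups. Against control their log2 differences were -0.09 and 0.24 with the *Slc2a1* gRNA and 0.07 and 0.07 with the 5 gRNAs (adjusted p from 0.451 to 0.828).

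In each comparison 3 of the 10 members had scaled counts that did not overlap between the groups. They were *Bcl2*, *Bak1* and *Bid* with the *Slc2a1* gRNA, where the same held for 26.2% of all genes, and *Bcl2*, *Bbc3* and *Bid* with the 5 gRNAs, where it held for 34.2%. Between the deleted populations they were *Bak1*, *Bbc3* and *Bid*, against 20.9% of all genes. The members' share was thus close to that of all genes in each case.

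The balance of BH3-only to survival transcripts was described on the TPM scale. The summed TPM of the 5 BH3-only genes was 0.542, 0.487 and 0.595 per survival TPM in control, 0.597, 0.607 and 0.618 with the *Slc2a1* gRNA and 0.709, 0.671 and 0.791 with the 5 gRNAs. The values of the 3 groups did not overlap, although control replicate 3 and *Slc2a1* gRNA replicate 1 were nearly equal. The sums themselves overlapped. BH3-only genes summed to 140 to 208 TPM in control, 138 to 184 with the *Slc2a1* gRNA and 166 to 246 with the 5 gRNAs, and survival members to 277 to 350, 228 to 298 and 235 to 315 TPM. With the *Slc2a1* gRNA the mean BH3-only sum was below that of control (157 against 166 TPM), and so was the mean survival sum (257 against 305 TPM). *Bbc3* made up 33.4 ± 2.79% (SD, n = 3) of the BH3-only TPM in control, 31.7 ± 4.09% with the *Slc2a1* gRNA and 38.1 ± 1.75% with the 5 gRNAs. *Bid* made up 20.5 ± 2.48%, 25.0 ± 1.38% and 25.1 ± 0.745%, and *Bcl2l11* 11.9 ± 1.86%, 10.5 ± 1.25% and 8.05 ± 1.34%. No test was made on these sums, since they repeat the levels of the same members. The effectors summed to 117 ± 7.08, 135 ± 16.8 and 122 ± 8.05 TPM and overlapped between the groups.

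**Figure D4:**
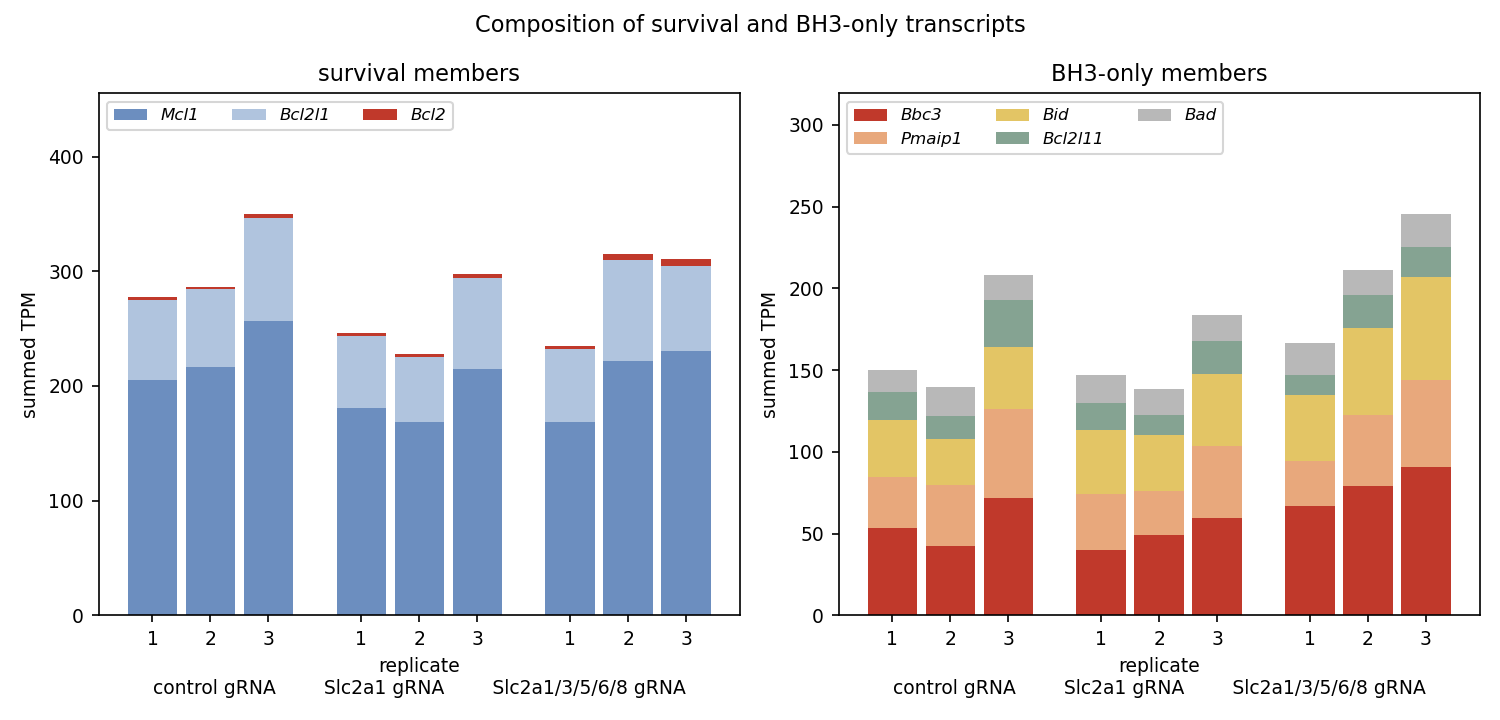
Summed TPM of the survival members (left) and of the BH3-only members (right) in each sample, stacked by gene, with axes from 0. *Mcl1* formed 70.4 to 75.5% of each survival column, and the *Bid* segment was at least 40.5 TPM with the 5 gRNAs against at most 38.0 in control.

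The tables also give for each sample the mean length of a gene's transcripts weighted by their abundance, which moves when isoforms of different length change in proportion. For *Bcl2l11*, whose isoforms differ in potency, it was 3880, 3503 and 3593 bases in control, 3322, 3192 and 3335 with the *Slc2a1* gRNA and 3418, 3756 and 3399 with the 5 gRNAs. All *Slc2a1* gRNA values were below every control value. *Bcl2l11* was the only member of 10 whose length did not overlap in that comparison, against 12.5% of the 10839 tested genes with a length that varied. Under the 5 gRNAs 3 members did not overlap with control, *Bak1* and *Bad*, which were shorter, and *Bid*, which was longer, against 16.1% of these genes. *Bid* measured 1998, 2015 and 2075 bases in control and 2094, 2119 and 2151 with the 5 gRNAs. These lengths are estimates of Salmon and were not tested.

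The members lie on 8 chromosomes of GRCm38, as annotated in GENCODE M21. *Bcl2* spans chr1:106538178-106714274, *Bid* chr6:120891930-120916853 and *Bbc3* chr7:16308393-16318205, and all 10 are protein coding. Of the *Bid* exonic bases 17.7% overlap *Bcl2l13* on the other strand, as do 25.5% of *Bak1* with *Ggnbp1*, 20.5% of *Bad* with *Gpr137* and 6.09% of *Bcl2* with *D630008O14Rik*. On the same strand 12.2% of *Bax* overlaps *Gm45808*. The library kit is not stated to keep strand, so that reads from such stretches cannot be told apart. *Bcl2l13*, at 33.2 to 61.9 TPM, did not pass (log2 -0.003 and 0.21 against control, adjusted p = 0.993 and 0.241), and *D630008O14Rik* did not exceed 0.0465 TPM in any sample.

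Over the 9 samples, the pattern of log2(TPM + 1) was compared between each member that passed against control and 8357 genes with a mean of at least 5 TPM. The genes most like *Bcl2* were *Thap12* (Pearson r = 0.981) and *Bid* itself (r = 0.977). Those most like *Bbc3* were *Mtg1* (r = 0.991) and *Pim1* (r = 0.956), and those most like *Bid* were *Orai3* (r = 0.983) and *Hspa9* (r = 0.971). These are the highest of many values over samples that share groups and scaling, and are given as a description.

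The counts for the gene lists that follow are to be read against all genes tested, of which 4.64% passed with the *Slc2a1* gRNA (2.25% higher) and 15.9% with the 5 gRNAs (8.49% higher). Of the 16 other Bcl2 family genes listed, 8 passed the filter on low counts. Among the 8, 3 rose and 0 fell with the *Slc2a1* gRNA. They were the mitophagy receptors *Bnip3* (log2 1.45, SE 0.27, adjusted p = 0.0165) and *Bnip3l* (log2 0.55, SE 0.11, adjusted p = 0.0207), and *Bcl2l14* (log2 2.32, SE 0.58, adjusted p = 0.0424). Against control, *Bnip3l* and *Bcl2l14* rose with the 5 gRNAs, *Bnip3l* (log2 0.52, SE 0.11, adjusted p = 0.00938) and *Bcl2l14* (log2 2.29, SE 0.58, adjusted p = 0.0208). On the TPM scale *Bnip3l* with the 5 gRNAs lay inside the control range, at 26.8 to 53.2 against 25.5 to 54.2 TPM, and with the *Slc2a1* gRNA it overlapped that range, at 39.5 to 62.8 TPM. *Bcl2l14* rests on 2 to 33 counts a sample. *Bnip3* did not pass without the replicate block (adjusted p = 0.0603). It ranged from 46.9 to 163 TPM in control and from 173 to 236 TPM with the *Slc2a1* gRNA, so that the groups did not overlap. The BH3-only gene *Bmf* was at log2 0.35 with the 5 gRNAs (SE 0.12, adjusted p = 0.0589). The median log2 fold change of the 8 was 0.33 and 0.28. The 3 and 2 calls among 8 genes stand beside 4.64 and 15.9% of all genes, with no test of the list.

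Downstream of the pores, all 19 listed genes of the apoptosome, caspases and their inhibitors were tested. In the *Slc2a1* gRNA cells 1 fell and 0 rose, *Birc2* (log2 -0.51, SE 0.13, adjusted p = 0.0458). In the *Slc2a1/3/5/6/8* gRNA cells 2 fell and 0 rose, *Birc2* (log2 -0.45, SE 0.13, adjusted p = 0.0384) and *Apaf1*, the scaffold of the apoptosome (log2 -0.39, SE 0.12, adjusted p = 0.041, and 0.055 without the replicate block). The medians were -0.02 and -0.03. The 1 of 19 genes called with the *Slc2a1* gRNA was close to the 4.64% of all genes, and the 2 of 19 with the 5 gRNAs were below the 15.9% of all genes. Upstream of *Bid*, all 8 genes of the death receptor route were tested. The receptor *Fas* fell with the *Slc2a1* gRNA (log2 -0.89, SE 0.23, adjusted p = 0.0485, and 0.0862 without the block). *Cflar*, the inhibitor of caspase-8, fell with the 5 gRNAs (log2 -0.43, SE 0.11, adjusted p = 0.0186) and the adaptor *Fadd* rose (log2 0.49, SE 0.13, adjusted p = 0.0252). *Casp8* itself did not pass, at log2 -0.17 and -0.26 (adjusted p = 0.434 and 0.156). The medians of this list were -0.03 and -0.26, and its 1 and 2 calls among 8 genes stand beside 4.64 and 15.9% of all genes.

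Of 8 transcription factors known to act on BH3-only genes, 7 were tested. *Ddit3*, which encodes CHOP, fell with the *Slc2a1* gRNA (log2 -0.75, SE 0.15, adjusted p = 0.0187) and rose with the 5 gRNAs (log2 0.84, SE 0.14, adjusted p = 0.00339). The difference between the deleted populations was 1.58 (SE 0.15, adjusted p = 0.000221). *Trp53*, which encodes p53 (log2 0.53, SE 0.12, adjusted p = 0.0152), and *Atf4* (log2 0.44, SE 0.12, adjusted p = 0.0248) also rose with the 5 gRNAs. The medians were -0.04 and 0.30, and the 1 and 3 calls among 7 genes stand beside 4.64 and 15.9% of all genes.

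Of 17 kinases, 14-3-3 proteins and ubiquitin enzymes that act on Bcl2 family proteins, 16 were tested. In the *Slc2a1* gRNA cells 1 rose, *Pim2* (log2 0.67, SE 0.13, adjusted p = 0.0174), a kinase that phosphorylates BAD. In the *Slc2a1/3/5/6/8* gRNA cells 3 rose and 1 fell. *Pim1* was at log2 0.47 (SE 0.11, adjusted p = 0.0149), and the 14-3-3 genes *Ywhag* and *Ywhab* were at 0.65 and 0.43 while *Ywhaq* was at -0.46 (adjusted p = 0.0182, 0.0398 and 0.0209). The medians were 0.15 and 0.03, and the 1 and 4 calls among 16 genes stand beside 4.64 and 15.9% of all genes. All 9 listed plasma cell survival receptors and their signal carriers were tested. *Cd28*, a receptor that supports plasma cell survival, rose with the *Slc2a1* gRNA (log2 2.02, SE 0.31, adjusted p = 0.00855) and with the 5 gRNAs (log2 2.36, SE 0.31, adjusted p = 0.000778). It remained a low transcript, at 0.28 to 0.463 TPM in control and up to 2.72 TPM with the 5 gRNAs. *Tnfrsf13b*, which encodes the BAFF and APRIL receptor TACI, rose with the 5 gRNAs (log2 0.42, SE 0.10, adjusted p = 0.018). The medians were 0.11 and 0.09, and the 1 and 2 calls among 9 genes stand beside 4.64 and 15.9% of all genes.

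The calls of *Bcl2*, *Bbc3* and *Bid* with the 5 gRNAs held on leaving out any sample (highest adjusted p = 0.0335). Without *Slc2a1/3/5/6/8* gRNA replicate 1, which stood apart, their log2 fold changes were 0.89, 0.55 and 0.81, and without control replicate 3 they were 0.73, 0.70 and 0.73. By limma on log2(TPM + 1) or log2(TPM + 0.1), none of these genes passed with the 5 gRNAs. None of the 8 and 15 list calls against control changed sign in any alternative. Apart from leaving out samples, only *Ddit3* and *Cd28* with the 5 gRNAs passed in all other alternatives. Among the rest, *Apaf1* with the 5 gRNAs passed in 5 of 9. *Bcl2l14* passed in 5 of 8 with the *Slc2a1* gRNA and in 6 of 8 with the 5 gRNAs. *Bnip3*, *Bnip3l* and *Fas* with the *Slc2a1* gRNA and *Ywhab* with the 5 gRNAs passed in 6 of 9. The remaining calls passed in at least 7 of 9. On leaving out single samples, 0 of 8 list calls with the *Slc2a1* gRNA passed in every case, and 2 of 15 with the 5 gRNAs did, those of *Ddit3* and *Cd28*. Leaving out control replicate 3 ended 13 of the 15 and 8 of the 8, leaving out control replicate 1 ended 11 and 6, and leaving out control replicate 2 ended 12 and 8, with adjusted p up to 0.243.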

How the data were processed

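RNA of 9 samples, 3 biological replicates for each of 3 populations, was analysed. The authors deposited 1 table per sample from Salmon 1.5.1 (version from the submitters' processing notes) with estimated counts, TPM and 2 other columns, the mean and effective transcript lengths, for 53077 gene symbols. The genome build and annotation are not given in the sources used here. 49351 symbols occur in GENCODE M21, used with GRCm38 for coordinates alone.

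Estimated counts were rounded and tested in edgeR 4.0.16 (R 4.3.3) by quasi-likelihood F tests after TMM scaling, with edgeR's default filter on low counts, all 9 samples in the fit and the replicate number as block, because the study states a paired test on these data. Standard errors were derived from the F statistic. p-values were adjusted by Benjamini-Hochberg over 13834 genes with a threshold of 0.05. Deviations of same-numbered samples from their group means correlated at 0.209 to 0.388 between control and *Slc2a1* gRNA. They correlated at -0.156 to 0.217 between control and *Slc2a1/3/5/6/8* gRNA, and at -0.176 to -0.025 between the deleted populations. For samples of different number the ranges were -0.352 to 0.084, -0.4 to 0.264 and -0.27 to 0.386, in that order. Same-numbered samples stood above the others in the first comparison alone. As r reached 0.386 between samples of different number, these values do not establish pairing. With 3 against 3 samples, an exact permutation test cannot go below p = 0.1. No test was run on single values such as shares.

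Alternatives were no block, DESeq2 1.42.0, total count scaling, other filters, only the groups compared, limma 3.58.1 on log2(TPM + 1) and log2(TPM + 0.1), leaving out each sample and, chosen after seeing the data, leaving out mitochondrial genes. The members and the gene lists were chosen with earlier results of these data known. Genes named are the 10 members, for each list and comparison with control up to 4 members passing the threshold with the smallest adjusted p, and the 2 genes most like each member that passed against control. *Bcl2l13*, *D630008O14Rik*, *Bmf* and *Casp8* were named after their values were seen. Also named are the targeted transporter genes, some cell type markers, genes that overlap a member and genes added to the *Mcl1* share. Replicates differed by more than sampling noise (chi-squared per degree of freedom at least 20.8). Salmon's division of shared reads leaves close copies uncertain.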

Additional observations from a re-analysis of the deposited data

Results flagged for a closer look

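*Bbc3* differed between the deleted populations by a direct test, being 0.53 higher on the log2 scale with the *Slc2a1/3/5/6/8* gRNAs than with the *Slc2a1* gRNA (SE 0.12, edgeR adjusted p = 0.0348), with no overlap between the 3 samples of each. The call rested on the replicate block (adjusted p = 0.0572 without it), although same-numbered samples of these populations did not deviate together (r from -0.176 to -0.025). Both populations are compared with the same control samples. Across the alternatives the adjusted p ranged from 0.00181 to 0.155, and 6 of 18 kept the call. The part of sorting, expansion or the share of edited cells in this difference was not tested.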

How the results depend on the processing

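The rise of *Bcl2*, *Bbc3* and *Bid* with the 5 gRNAs kept its direction in all 18 alternatives and its call in 16 of them. The exceptions were limma on log2 TPM with a pseudocount of 1 or 0.1, which called 0 members in that comparison, although 3 had an unadjusted p under 0.05 in both. Leaving out single samples gave 3 to 4 members.

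For the *Slc2a1* gRNA against control, the 1 call became 0 without the replicate block (4 members at an unadjusted p under 0.05), 0 with total count scaling (2 unadjusted), 2 with DESeq2, 3 with only the 2 groups compared, and 0 with limma at either pseudocount (1 unadjusted with a pseudocount of 1 and 0 with 0.1). Leaving out single samples gave 0 to 2. Between the deleted populations, the 1 call became 0 without the block (4 unadjusted), 4 with DESeq2, 3 without a low-count filter, 0 with only the 2 groups (4 unadjusted) and 0 with limma at either pseudocount (2 unadjusted in both), and leaving out single samples gave 0 to 2. Leaving out mitochondrial genes, chosen after seeing the data, left 1, 3 and 1 calls. The block changed no other member's call. Over all genes, the 642, 2204 and 319 calls of the 3 comparisons moved by over 1.5 times in 11, 6 and 11 of 18 alternatives. The first ranged from 0 (limma, pseudocount 1, with 2367 genes at an unadjusted p under 0.05) to 2268 (only the 2 groups), with 11, 24, 45, 64 and 72 calls without control replicate 2, *Slc2a1* gRNA replicate 2, control replicate 3, *Slc2a1* gRNA replicate 1 and control replicate 1. The share of members must be read against a background that moves this far.

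The share of survival TPM taken by *Mcl1* in control, 74.3%, became 71.7% with *Bcl2l2* and the *Bcl2a1* genes added and 78.2% from estimated counts.

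Signs changed only for members that had not passed. *Bbc3* with the *Slc2a1* gRNA was at -0.15 by limma at either pseudocount. *Bcl2l1* with the 5 gRNAs was at -0.010 with total count scaling and at -0.013 by limma at either pseudocount. *Bad* between the deleted populations was at 0.14 by limma at either pseudocount. On leaving out samples *Bcl2l1* ranged from -0.12 to 0.051 with the *Slc2a1* gRNA, from -0.041 to 0.18 with the 5 gRNAs and from -0.016 to 0.21 between them. *Bad* ranged from -0.14 to 0.27 with the 5 gRNAs and from -0.38 to 0.011 between the deleted populations, and *Bcl2l11* from -0.28 to 0.25 in the latter. The TPM scale moved the median of all genes with the *Slc2a1* gRNA to -0.11 (pseudocount 1) and -0.16 (pseudocount 0.1). The cause of these shifts was not tested. With 3 samples a group, *Bcl2l11* and *Bad* had the widest intervals.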
